A study of Mus musculus with 28 samples.

Results

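The genes described here encode REST, its CoREST partners and the core subunits of the SIN3 complex in the mouse hippocampus, in animals injected with vehicle or with trichostatin A (TSA), an inhibitor of histone deacetylases. They are 10 of the 19938 named genes measured: Rest, the CoREST genes Rcor1, Rcor2 and Rcor3, the SIN3 scaffold genes Sin3a and Sin3b, and the SIN3 subunit genes Sap30, Sap30l, Sap130 and Suds3. Each had 1 row in the expression table. They were chosen as the parts of 1 repressor system after some of them, Rest first, had been seen to be higher after TSA in these arrays. Their TSA values are therefore a description: no p-value is printed for them, and counts past the threshold stand beside the share of all genes with nothing read from them. The comparisons not used in this choice are those of novelty and genotype. The interactions are formed from the same TSA values, so the choice may bear on them and nothing is read from their calls.

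Hippocampal RNA came from 3-month-old C57/DBA F1 hybrid females, either wild type or cbp+/- littermates, which carry 1 working copy of the gene for the histone acetyltransferase CBP. Mice received 2.4 mg/kg TSA or vehicle (DMSO and saline) by intraperitoneal injection, and tissue was taken 75 min after TSA. Novelty was 1 h alone in a box with tubing and toys, begun 15 min after the injection of TSA. For each genotype there were 3 arrays of each of 4 groups: cage with vehicle, cage with TSA, novelty with vehicle and novelty with TSA. A further 2 arrays per genotype came from naive cage mice, which made 28 arrays in all. Each array held RNA pooled from several mice (3 to 4 per the design text, 4 per the extraction protocol), so replicates are pools and single mice cannot be compared. A background below is a genotype in 1 housing condition, so TSA was compared with vehicle in 4 backgrounds. Whole hippocampus was used, so no value belongs to 1 cell type. In such tissue fewer cells of a type and less RNA per cell cannot be told apart.

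REST is a zinc finger repressor that binds the RE1 element near many neuronal genes and holds them silent in cells that are not neurons. Its N-terminal repressor domain recruits the SIN3 scaffolds and its C-terminal domain recruits CoREST. CoREST ties the demethylase LSD1 to HDAC1 and HDAC2, while SIN3 proteins gather the same deacetylases with SAP30, SDS3 and related subunits. TSA blocks the catalytic site of these deacetylases, so the complexes described here carry enzymes that the drug inhibits. In the adult hippocampus REST is present at a low level in neurons and has been studied in seizures, ischemia and ageing.

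The deposited values are on a log2 scale, on which the median of an array was 5.46 at the lowest and 5.63 at the highest. The 9 markers of hippocampal neurons, among them Camk2a and Slc17a7, had a mean log2 value of 8.9 to 9.36 in the vehicle arrays and 8.86 to 9.29 in the TSA arrays and lay well above the array medians. With limma, 0 of these neuronal markers and 0 of the 40 measured markers of 7 other cell types were called for TSA without a block (background: 0.331% of all genes in either direction), with 0 and 1 of them under an unadjusted 0.05. With the array-set block described next (background 4.63%) 1 neuronal marker, Neurod6, was called lower by -0.26 ± 0.07, and 0 of the 40, of which 5 were under an unadjusted 0.05. Choroid plexus markers stood apart in 4 arrays, by 2.09 log2 above the median array in cbp+/- cage vehicle replicate 3, 1.93 in wild-type novelty TSA replicate 1, 1.7 in cbp+/- cage TSA replicate 1 and 0.99 in cbp+/- novelty TSA replicate 2. The mean of these 7 markers ran from 5.19 to 7.5 in the vehicle arrays and from 5.2 to 7.34 in the TSA arrays, and their TSA differences from 0.02 to 0.33. Their part in the results was not tested, and the TSA values are also given without those arrays.

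The arrays fell into 3 sets that no label names. Replicates 1, 2 and 3 of the TSA and novelty groups deviated from their group means together with cage vehicle replicates 3, 4 and 5. Deviations of arrays of the same set correlated at 0.42 to 0.81 (84 pairs), and those of different sets at -0.63 to -0.01 (168 pairs). Differences are therefore given from a fit without a block, which was the planned one, and from a fit with array set as a block. For the averages over all backgrounds both give the same difference with a different error. Values of 3 arrays are listed in the order of sets 1, 2 and 3.

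Upstream sequence is shown for the related genes whose TSA values differed most, Rcor1 beside Rcor3 and Sin3a beside Sin3b, so that the members of each pair can be read side by side. The windows are the 250 bases before each RefSeq start in GRCm38.p6. Rcor1 lies at chr12:111039117-111039366 on the plus strand and Rcor3 at chr1:192138041-192138290 on the minus strand. Sin3a has 2 starts, at chr9:57071790-57072039 and chr9:57076126-57076375, both on the plus strand, and Sin3b lies at chr8:72723020-72723269 on the plus strand. Each is written 5′ to 3′ along the gene, and motifs found on either strand are in capitals. One is the GC box, GGGCGG. Another is the CCAAT box, which is named by its letters. The last is the short core of the cAMP response element, called the CRE core here, with the letters TGACG.
Rcor1: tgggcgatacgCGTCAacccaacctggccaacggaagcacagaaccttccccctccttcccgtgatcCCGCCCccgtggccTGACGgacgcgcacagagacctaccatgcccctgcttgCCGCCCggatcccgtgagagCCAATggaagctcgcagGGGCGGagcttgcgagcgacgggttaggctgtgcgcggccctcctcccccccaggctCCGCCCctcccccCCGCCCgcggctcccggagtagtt
Rcor3: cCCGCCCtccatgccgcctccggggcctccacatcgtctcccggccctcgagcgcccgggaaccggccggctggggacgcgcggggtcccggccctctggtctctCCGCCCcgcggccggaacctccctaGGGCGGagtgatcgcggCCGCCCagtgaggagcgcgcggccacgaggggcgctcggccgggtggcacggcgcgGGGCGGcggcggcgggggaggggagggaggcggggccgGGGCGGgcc
Sin3a first start: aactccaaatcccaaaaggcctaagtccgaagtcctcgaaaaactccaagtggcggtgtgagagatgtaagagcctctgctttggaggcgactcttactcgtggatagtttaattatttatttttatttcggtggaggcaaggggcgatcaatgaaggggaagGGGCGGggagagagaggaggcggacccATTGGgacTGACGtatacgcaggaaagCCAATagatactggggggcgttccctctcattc
Sin3a second start: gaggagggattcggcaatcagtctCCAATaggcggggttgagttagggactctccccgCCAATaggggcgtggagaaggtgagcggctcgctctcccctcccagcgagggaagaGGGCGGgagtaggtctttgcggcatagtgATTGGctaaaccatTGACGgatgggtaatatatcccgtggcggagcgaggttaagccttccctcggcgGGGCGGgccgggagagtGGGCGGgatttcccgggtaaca
Sin3b: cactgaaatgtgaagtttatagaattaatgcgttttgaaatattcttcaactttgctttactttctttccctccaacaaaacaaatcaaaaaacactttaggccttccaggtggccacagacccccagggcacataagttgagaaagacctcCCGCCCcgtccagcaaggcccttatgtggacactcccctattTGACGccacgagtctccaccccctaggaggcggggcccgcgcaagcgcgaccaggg

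The table held windows for 8 of the 10 genes, 9 windows in all, and none for Rest and Sap130. All 9 windows had a GC box, the element bound by SP1-type factors, which 32.7% of all 32851 windows of this length have. The 9 windows held 50.8% to 82.8% G and C, against a median of 52.4% over all windows. No motif share was taken over windows of like G and C, so nothing is read from the shares here. Rcor3 had 6 GC boxes in a window of 82.8% G and C, and Rcor1 had 5 at 70.4%. Sin3b and the first Sin3a start each had 1 at 50.8%, and the second Sin3a start had 3 at 61.6%. The CRE core, the short form of the site through which CREB recruits CBP, stood in both Sin3a windows, in Rcor1, where it occurred 2 times, and in Sin3b and Suds3, which made 5 of 9 windows against 17.8% of all. A CCAAT box, the site of the factor NF-Y, stood in 4 of 9 windows, those of Rcor1, Sap30l and both Sin3a starts, against 33.8% of all. Neither the full palindromic CRE (TGACGTCA, 1.55% of all windows; it contains the CRE core) nor the left part of the RE1 element (TTCAGCACC, 0.301%) was found in any of the 9. The marked matches do not overlap each other. These matches are letters in a window, and no binding was measured here.

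Rest was higher after TSA in all 4 backgrounds. In wild-type cage mice its log2 values were 5.14, 5.17 and 5.24 with vehicle and 5.78, 5.67 and 5.74 with TSA. In cbp+/- cage mice they were 5.61, 5.32 and 5.37 with vehicle and 5.9, 6.06 and 5.79 with TSA. The TSA arrays lay above every vehicle array of the same background in both. After novelty the wild-type values were 5.34, 5.28 and 4.94 with vehicle and 5.95, 6.01 and 5.59 with TSA, again without overlap. The cbp+/- novelty values were 5.59, 5.35 and 4.85 with vehicle and 6.24, 5.75 and 5.3 with TSA, where the set 3 TSA array lay below the vehicle arrays of sets 1 and 2 but above its own. Within a set, Rest was higher with TSA in 12 of 12 pairs, by 0.29 to 0.74 (median 0.56).

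**Figure D1:**
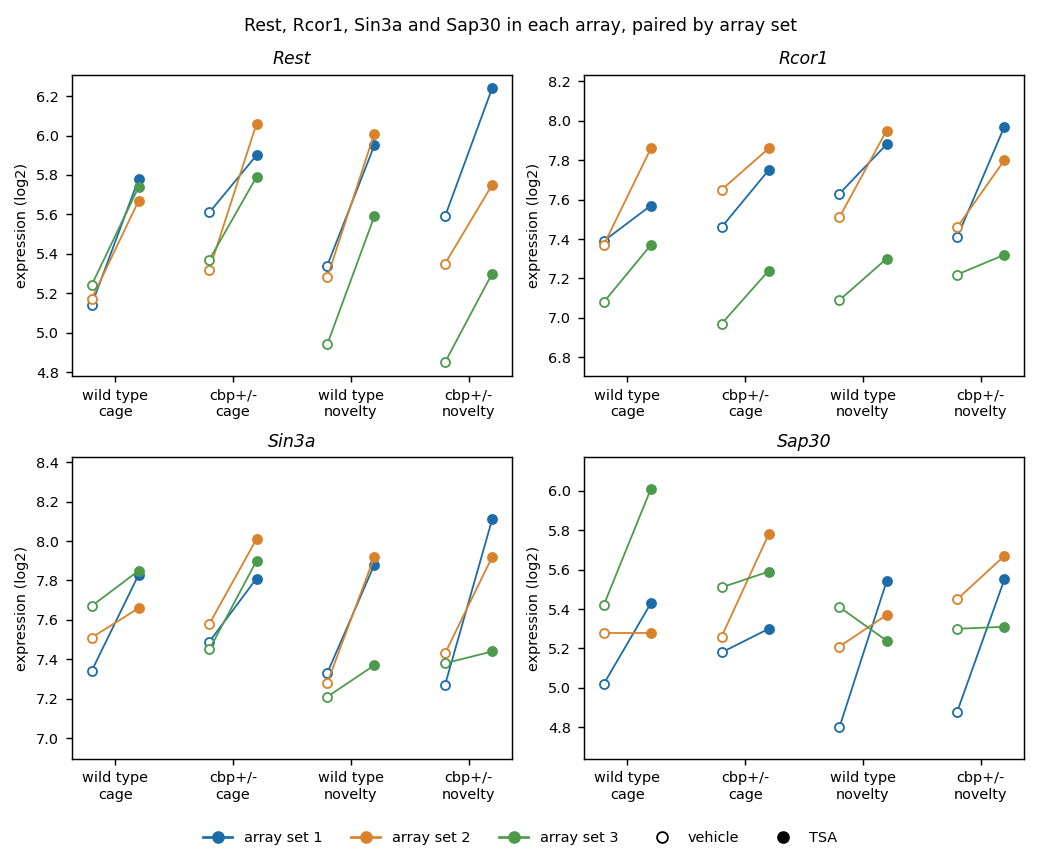
Log2 expression (y axis) of Rest, Rcor1, Sin3a and Sap30 in each vehicle array (open) and TSA array (filled) of the 4 backgrounds (x axis), with lines joining arrays of the same set (colour); the 4 panels span the same log2 range. For Rest, Rcor1 and Sin3a all 12 lines rise; for Sap30 the set 3 line falls in wild-type novelty and the set 2 line is level in wild-type cage.

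Averaged over the backgrounds, Rest was 0.55 ± 0.09 log2 higher with TSA (SE without block, 12 arrays against 12; ± 0.07 with the block), a fold of 1.46 with a 95% interval of 1.28 to 1.67. The difference was 0.55 in wild-type cage, 0.49 in cbp+/- cage, 0.66 in wild-type novelty and 0.5 in cbp+/- novelty, each ± 0.19 without the block and ± 0.13 with it. Averaged by set it was 0.55, 0.6 and 0.5. Ordered by group mean ± SD, Rest had 5.19 ± 0.05 in wild-type cage vehicle, 5.19 ± 0.21 in wild-type novelty vehicle, 5.26 ± 0.38 in cbp+/- novelty vehicle and 5.43 ± 0.16 in cbp+/- cage vehicle. The TSA groups followed, with 5.73 ± 0.05 in wild-type cage, 5.76 ± 0.47 in cbp+/- novelty, 5.85 ± 0.23 in wild-type novelty and 5.92 ± 0.14 in cbp+/- cage. Neighbours in this order differ by no more than their spread, except at the step from the highest vehicle group to the lowest TSA group. The naive arrays had 5.15 ± 0.06 in wild type and 5.27 ± 0.02 in cbp+/- (n = 2 each), within or near the range of the vehicle arrays. Without the 4 arrays high in choroid plexus markers the averaged difference was 0.56 ± 0.11, or 0.59 ± 0.08 with the block.

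Of the CoREST genes, which encode the SANT-domain proteins that bind LSD1, Rcor1 and Rcor2 were higher with TSA and Rcor3 was not. Rcor1 had 7.39, 7.37 and 7.08 with vehicle and 7.57, 7.86 and 7.37 with TSA in wild-type cage mice, and 7.46, 7.65 and 6.97 against 7.75, 7.86 and 7.24 in cbp+/- cage mice. After novelty it had 7.63, 7.51 and 7.09 against 7.88, 7.95 and 7.3 in wild type, and 7.41, 7.46 and 7.22 against 7.97, 7.8 and 7.32 in cbp+/-. The groups overlapped in every background, because set 3 held the lowest Rcor1 array of each of the 8 groups. Within a set Rcor1 was higher with TSA in 12 of 12 pairs, by 0.09 to 0.57. The averaged difference was 0.3, with an SE of 0.11 without the block and 0.05 with it.

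Rcor2 was 0.23 ± 0.05 log2 higher with TSA (12 arrays against 12), and higher in 10 of 12 pairs. The 2 pairs that went the other way were set 3 of wild-type cage, at 5.98 with vehicle and 5.78 with TSA, and set 2 of cbp+/- cage, at 5.86 and 5.78. After novelty the groups did not overlap: wild-type arrays had 5.45, 5.83 and 5.57 with vehicle and 5.89, 5.87 and 5.89 with TSA, and cbp+/- arrays had 5.48, 5.53 and 5.46 with vehicle and 5.88, 5.76 and 5.86 with TSA. Rcor3 gave -0.05 ± 0.08, with a 95% interval of -0.21 to 0.12, and was higher in 4 and lower in 8 of 12 pairs. In array set 2 it was lower with TSA in each background, from 6.89 to 6.65 in wild-type cage, 6.91 to 6.72 in cbp+/- cage, 6.6 to 6.4 in wild-type novelty and 6.76 to 6.69 in cbp+/- novelty. Its difference averaged 0.05 in set 1, -0.17 in set 2 and -0.01 in set 3.

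**Figure D2:**
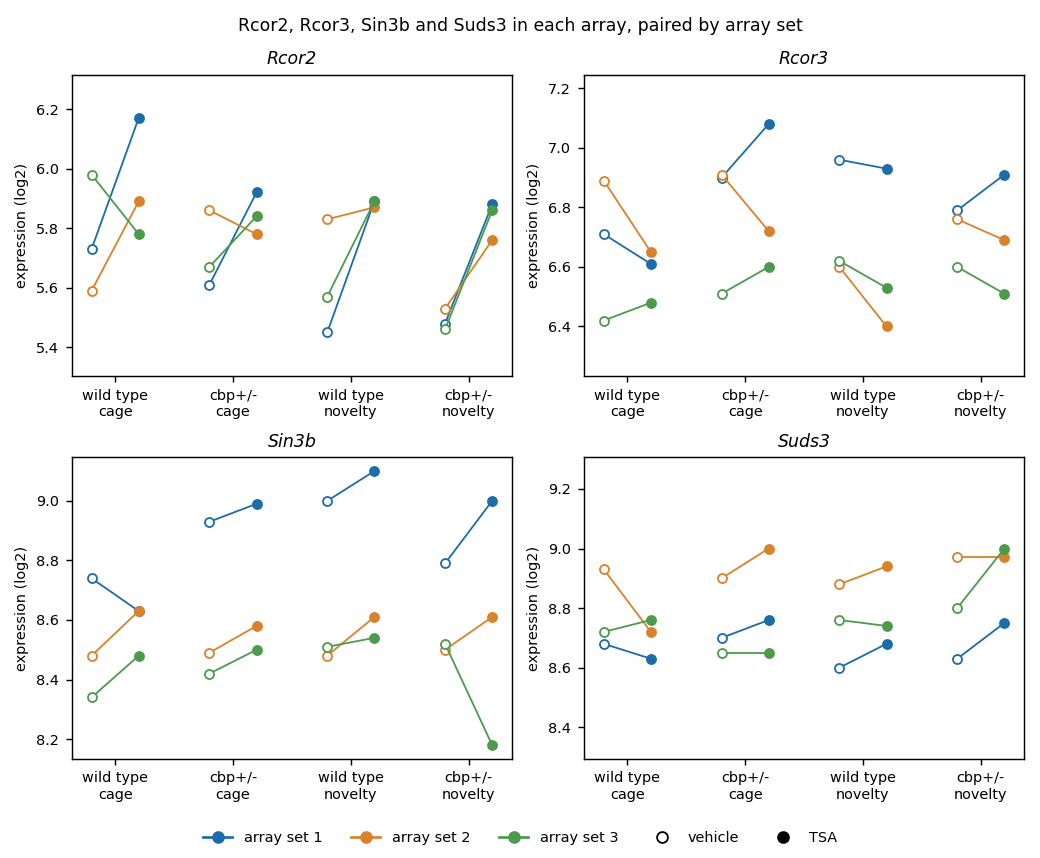
Log2 expression (y axis) of Rcor2, Rcor3, Sin3b and Suds3 in vehicle (open) and TSA (filled) arrays of the 4 backgrounds (x axis), joined by array set (colour), with panels of equal log2 span. The Rcor2 lines rise in 10 of 12 pairs and the Rcor3 lines in 4 of 12, while the Sin3b and Suds3 lines are close to level apart from Sin3b in set 3 of cbp+/- novelty.

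The SIN3 scaffolds, which hold the deacetylases and bind repressors through their paired amphipathic helix domains, also differed from each other. Sin3a had 7.34, 7.51 and 7.67 with vehicle and 7.83, 7.66 and 7.85 with TSA in wild-type cage mice, the only background in which its groups overlapped. In cbp+/- cage mice it had 7.49, 7.58 and 7.45 against 7.81, 8.01 and 7.9. After novelty it had 7.33, 7.28 and 7.21 against 7.88, 7.92 and 7.37 in wild type, and 7.27, 7.43 and 7.38 against 8.11, 7.92 and 7.44 in cbp+/-. Sin3a was thus higher with TSA in 12 of 12 pairs, by 0.06 to 0.84, and the set 3 pairs had the smallest mean, at 0.21 against 0.55 in set 1 and 0.43 in set 2. The averaged difference was 0.4 ± 0.07 (0.06 with the block), a fold of 1.32 with a 95% interval of 1.19 to 1.46.

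Sin3b, by contrast, gave 0.05 ± 0.1 (0.05 with the block), with a 95% interval of -0.15 to 0.26. Its groups overlapped in all 4 backgrounds. It was higher with TSA in 10 of 12 pairs, but 11 of the 12 differences lay between -0.11 and 0.22, and the last, from 8.52 to 8.18 in set 3 of cbp+/- novelty, went down. With the block the 95% interval was 0.26 to 0.53 for Sin3a and -0.04 to 0.15 for Sin3b. The genes were chosen with these values known, and their difference was not tested.

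Sap30, a zinc finger subunit that links SIN3 to its deacetylases, had an averaged difference of 0.28 ± 0.1 (0.08 with the block). It was higher with TSA in 11 of 12 pairs by any amount above 0, and 1 of these, set 2 of wild-type cage, had 5.28 in both arrays. Its pairs ranged from -0.17 to 0.75, and the largest were in set 1 of both novelty backgrounds, where Sap30 went from 4.8 to 5.54 (wild type) and from 4.88 to 5.55 (cbp+/-). The groups overlapped in all 4 backgrounds. Its paralogue Sap30l gave 0.17 ± 0.06 (0.04 with the block), higher in 10 of 12 pairs. Sap30l was clear of the vehicle arrays only in cbp+/- novelty, at 7.42, 7.14 and 7.21 against 6.99, 6.86 and 6.96.

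Sap130, which encodes another subunit of the SIN3 complex, gave 0.14 ± 0.06 (0.04 with the block), and its groups too were apart only in cbp+/- novelty, at 8.31, 7.88 and 7.85 with TSA against 7.77, 7.74 and 7.77 with vehicle. Suds3, the SDS3 subunit that supports deacetylase activity in the complex, gave 0.03 ± 0.06, with a 95% interval of -0.09 to 0.15. It was higher in 9 of 12 pairs, all between -0.2 and 0.21, and its values in both conditions lay between 8.6 and 9.

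**Figure D3:**
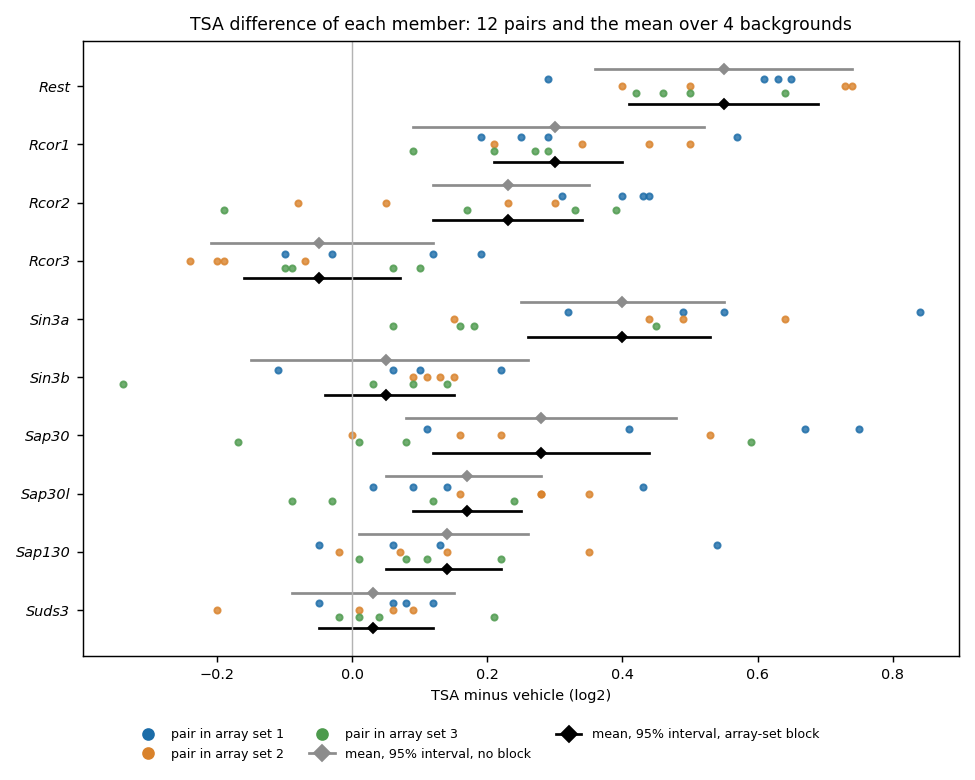
TSA minus vehicle in log2 (x axis) for each of the 10 genes (y axis): points are the 12 pairs coloured by array set, and diamonds with lines are the mean over the 4 backgrounds and its 95% interval, in grey without and in black with the array-set block. Rest lies highest at 0.55 with all its points above 0, and the means of Rcor3, Sin3b and Suds3 lie within 0.05 of 0.

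By limma's adjusted p under 0.05, 2 of the 10 genes, Rest and Sin3a, passed for TSA without a block, where 0.216% of all genes passed as higher. With the array-set block 6 passed, Rest, Rcor1, Rcor2, Sin3a, Sap30 and Sap30l, where 2.69% of all genes did. The genes were chosen on this contrast, so nothing is read from these counts. With the block and any 1 of the 24 vehicle and TSA arrays left out, Sap30 passed in only 10 of 24 fits. It passed without wild-type cage vehicle replicate 5, cage TSA replicate 2, novelty vehicle replicate 3 or novelty TSA replicate 2 or 3. It also passed without cbp+/- cage vehicle replicate 5, cage TSA replicate 1 or 3, novelty vehicle replicate 2 or novelty TSA replicate 3. Without the 4 arrays high in choroid plexus markers 0 passed without a block, where 0.145% of all genes did in either direction. Of the 10 genes 6 were then under an unadjusted 0.05, with Rest at 0.56 and Sin3a at 0.38. With the block 3 passed without those arrays, Rest, Rcor1 and Sin3a, where 2.9% of all genes did. In the block fit without array set 1, the same 3 genes passed, where 1.26% of all genes did.

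Counts over single pairs and arrays have the same limit. Rest, Rcor1 and Sin3a were higher in all 12 pairs, as were 0.828% of all genes, and 8 of the 10 genes were higher in at least 10 pairs, as were 6.78% of all genes. Rest and Sin3a had TSA arrays wholly above vehicle arrays in 3 of 4 backgrounds, as did 0.251% of all genes in at least 3. By background that separation held for 2.21% of all genes in wild-type cage, 2.34% in cbp+/- cage, 4.03% in wild-type novelty and 2.08% in cbp+/- novelty. Within a single background, 3 arrays against 3, no gene of the 10 passed without the block. In each background 0 of all genes passed in either direction, so nothing is read from this for the 10 genes. By background 1 to 5 of the 10 were under an unadjusted 0.05, as were 326 to 740 of all genes. With the block Rest passed in wild-type novelty (0.1% of all genes higher), and none passed in wild-type cage (0.00502%), cbp+/- cage (0.00502%) or cbp+/- novelty (0.0201%). That single call was lost without any 1 of the 6 wild-type novelty arrays. It was also lost without wild-type cage TSA replicate 1, cbp+/- cage vehicle replicate 3, 4 or 5, cbp+/- cage TSA replicate 1 or cbp+/- novelty vehicle replicate 2.

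For novelty none of the 10 genes passed the threshold. So few of all genes passed that nothing is read from this count, and the intervals give the range of differences not excluded. Averaged over genotype and treatment (12 arrays against 12), differences ran from -0.13 for Sin3a to 0.08 for Rcor1, and limma called 0 of 10 without the block, where 0.16% of all genes were called, and 0 of 10 with it, where 0.481% were. In each fit 1 gene, Rcor2, was under an unadjusted 0.05, at -0.11 ± 0.05 (adjusted p = 1 without the block and 0.572 with it). Sin3a gave -0.13 ± 0.07, with a 95% interval of -0.28 to 0.02 (adjusted p = 1, and 0.603 with the block). For Rest the difference was -0.05 ± 0.09, with an interval of -0.24 to 0.14 (adjusted p = 1, and 0.927 with the block). Over the 10 genes the intervals reached from -0.31 to 0.3 without the block and from -0.27 to 0.18 with it.

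For genotype none of the 10 genes passed either, and few or none of all genes did, so nothing is read from this count. Averaged over the 4 conditions, cbp+/- minus wild type ran from -0.08 for Rcor2 to 0.1 for Rest and Rcor3, and limma called 0 of 10 in either fit, with 0 under an unadjusted 0.05 (background: 0% without the block and 0.652% with it). Rest had 0.1 ± 0.09, with a 95% interval of -0.09 to 0.3 (adjusted p = 1, and 0.509 with the block). Rcor3 had 0.1 ± 0.08 (adjusted p = 1, and 0.427 with the block), and Rcor2 -0.08 ± 0.05 (adjusted p = 1, and 0.495 with the block). The intervals of the 10 genes reached from -0.21 to 0.3 without the block and from -0.19 to 0.24 with it.

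For the dependence of the TSA difference on genotype or housing, 0 of all genes were called in either of these fits. Nothing is therefore read from the calls for the 10 genes, which were also chosen on TSA values. For genotype, cbp+/- minus wild type, limma called 0 of 10 in both fits with 0 under an unadjusted 0.05 (background 0%), and estimates ran from -0.11 for Rest to 0.11 for Rcor3. The Rest interval with the block was -0.38 to 0.17 (adjusted p = 0.964), so a TSA difference of Rest smaller in cbp+/- mice by up to 0.38 is not outside it. For housing, novelty minus cage, limma called 0 of 10 in both fits (background 0%), with 0 under an unadjusted 0.05 without the block and 2 with it. These were Sap130, at 0.19 ± 0.09, and Sap30l, at 0.17 ± 0.08, both with an adjusted p of 1. Rest had 0.07 ± 0.13 with the block, with an interval of -0.21 to 0.34 (adjusted p = 1). A block by label number, which joins arrays of different sets, called 2 of the 10 genes for housing, Rcor1 and Sin3b, and 18.8% of all genes.

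**Figure D4:**
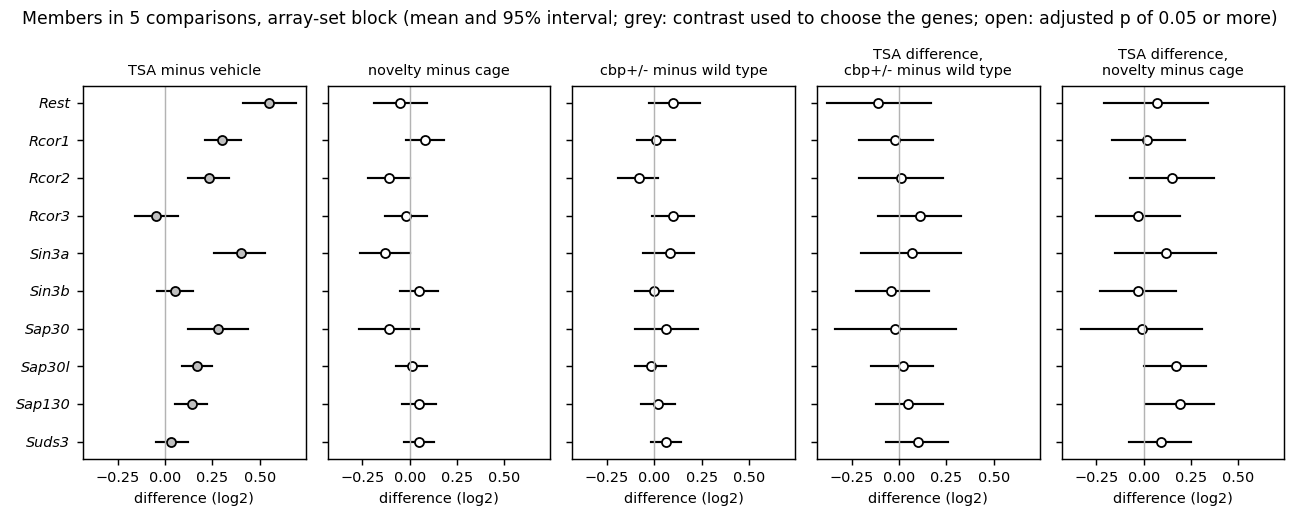
Differences in log2 with 95% intervals (x axis) for the 10 genes (y axis) from the fit with the array-set block, in 5 panels: TSA, novelty, genotype, and the dependence of the TSA difference on genotype and on housing. Open points have an adjusted p of 0.05 or more, as all do in the 4 tested panels; grey points mark TSA, the contrast on which the genes were chosen.

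Genes whose levels followed Rest were ranked by Pearson's r over the 24 vehicle and TSA arrays, after centring each array set, among all 19938 genes. The closest was Plag1, a zinc finger transcription factor, at r = 0.9, then the lipid transporter gene Abca7 at 0.89, the centrosomal protein gene Tbc1d31 at 0.89, Sin3a at 0.85 and the nuclear import gene Kpna2 at 0.84. All 5 were higher with TSA in 12 of 12 pairs, as were 0.828% of all genes. They were picked for likeness to Rest over these same arrays, so nothing is read from that count. With the block the TSA differences were 0.73 ± 0.06 for Plag1, 0.12 ± 0.03 for Abca7, 0.62 ± 0.07 for Tbc1d31, 0.4 ± 0.06 for Sin3a and 0.43 ± 0.06 for Kpna2. Sin3a ranked 4 of all genes on this r. Rcor1 ranked 65 at 0.75, Sap30 171 at 0.69, Sap30l 258 at 0.65, Sap130 307 at 0.63 and Rcor2 708 at 0.54. Sin3b had 0.36, Suds3 0.07 and Rcor3 -0.17. These arrays share the TSA contrast, which raises r between genes that differ with TSA. With each group centred as well, r with Rest was 0.65 for Tbc1d31, 0.64 for Sin3a, 0.6 for Plag1, 0.5 for Abca7, 0.48 for Kpna2, 0.47 for Sap30, 0.34 for Sap30l and Sap130, 0.25 for Sin3b, 0.18 for Rcor1, -0.01 for Rcor2, -0.27 for Rcor3 and -0.33 for Suds3. No rank among all genes was taken for this second r, so nothing is read from its size.

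The genes of proteins that work with REST and CoREST were counted next. Of 14 measured, 0 passed without the block (3 were under an unadjusted 0.05, and 0.216% of all genes passed as higher) and 2 rose with it (2.69% of all genes), and the median difference of the list was 0.01, against 0.003 over all genes. Hdac1, a deacetylase of CoREST, SIN3 and NuRD alike, rose by 0.23 ± 0.04 (adjusted p = 0.00126 in limma with the block; higher in 11 of 12 pairs). Ctbp2, a corepressor that joins CoREST, rose by 0.18 ± 0.04 (adjusted p = 0.0176; 11 of 12 pairs). Kdm1a, which encodes LSD1, was level at 0 ± 0.05, and Hdac2, the sister of Hdac1, gave -0.11 ± 0.07 (adjusted p = 0.469). The histone methyltransferase genes Ehmt1 and Ehmt2 gave 0.01 ± 0.05 and 0.05 ± 0.05.

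Of 26 measured SIN3 partners, 1 rose without the block (0.216% of all genes) and 6 with it (2.69%), 0 fell, and the median was 0.07. Ing1, a reader of methylated histone H3 in the complex, was the one called without the block (0.23 ± 0.04, adjusted p = 0.00992 in limma; 11 of 12 pairs). With the block it was joined by Sinhcaf (0.36 ± 0.06, adjusted p = 0.00115), another SIN3 subunit gene, and by Hdac1. Mxd1 (0.28 ± 0.06, adjusted p = 0.00562) and Mxi1 (0.19 ± 0.05, adjusted p = 0.0239), which encode MAX-binding repressors that recruit SIN3, rose as well. So did the demethylase gene Kdm5b (0.18 ± 0.05, adjusted p = 0.0303). The histone-binding subunit genes Rbbp4 and Rbbp7 gave -0.06 ± 0.05 and -0.04 ± 0.05, and Brms1l, at -0.13 ± 0.05 (adjusted p = 0.106), was lower in each of the 12 pairs. The share of all genes lower in all 12 pairs was not counted.

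The deacetylase complexes NuRD and NCoR served as the nearest comparison. The NuRD list is not separate from this system: Hdac1, Hdac2, Rbbp4 and Rbbp7 also stand among the SIN3 partners. Of the 13 NuRD genes, 0 passed without the block (1 under an unadjusted 0.05), where 0.216% of all genes passed as higher. With the block 2 rose, where 2.69% of all genes did, and the list median was 0. The 2 were the remodeller gene Chd4 (0.15 ± 0.04, adjusted p = 0.0244 in limma) and Hdac1. Of 5 measured NCoR complex genes 0 passed in either fit of limma (0 and, with the block, 1 under an unadjusted 0.05), with a median of 0.07; Hdac3, its deacetylase, gave 0.07 ± 0.05.

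Neuronal genes commonly described as REST targets were close to level. Of 25 measured, 0 passed for TSA without the block (1 under an unadjusted 0.05), where 0.216% of all genes passed as higher. With the block 1 rose, which is 4% of the list and near the 2.69% of all genes, so nothing is read from this count. Of the 25, 14 were above and 11 at or below 0, and the list median was 0.01. The gene that rose was Chrm4, the M4 muscarinic receptor and a classical RE1-bearing gene, at 0.32 ± 0.05 (adjusted p = 0.000505 in limma with the block; 11 of 12 pairs). The next was the potassium channel gene Kcnh2, at 0.13 ± 0.05 (adjusted p = 0.173). Synaptic and channel genes gave values around 0: Snap25 -0.02 ± 0.04, Syp -0.01 ± 0.06, Scn2a -0.05 ± 0.04, Gria2 -0.06 ± 0.04, Grin2b 0.02 ± 0.05 and Syn1 0.06 ± 0.06. Bdnf and Slc12a5, the latter the chloride transporter KCC2, both gave 0 ± 0.04. The lowest of the list was Calb1, at -0.08 ± 0.05 (adjusted p = 0.463).

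**Figure D5:**
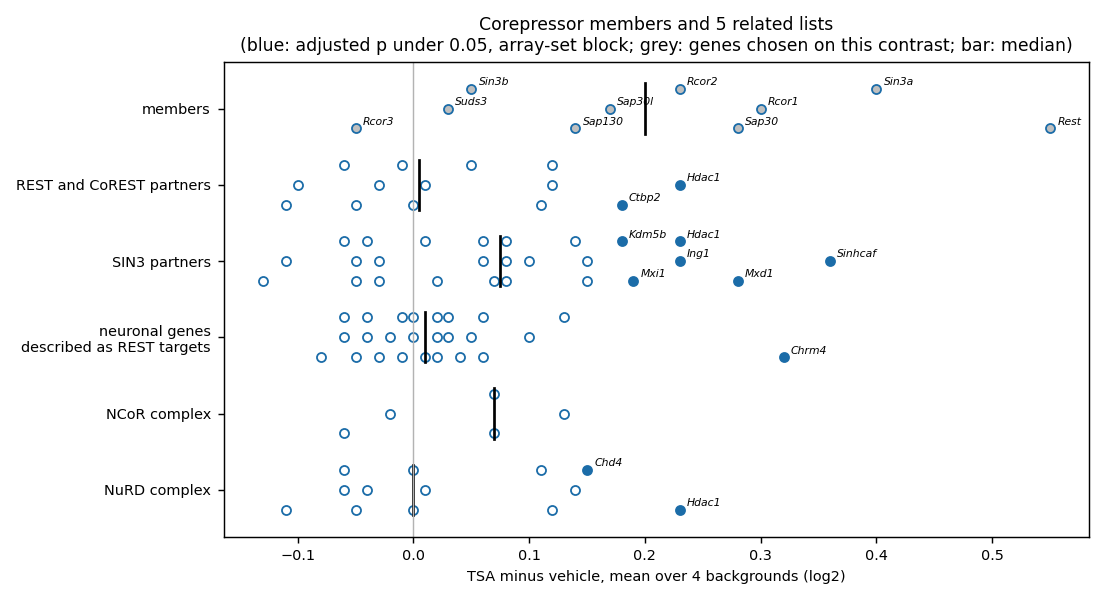
TSA minus vehicle in log2, averaged over the 4 backgrounds (x axis), for the 10 corepressor genes and the measured genes of 5 related lists (y axis); blue points have an adjusted p under 0.05 in the fit with the array-set block and are named, grey points are the 10 genes chosen on this contrast, and bars are list medians. The REST-target list lies around 0 apart from Chrm4 at 0.32, and the SIN3 partners reach 0.36 at Sinhcaf; Hdac1 stands in 3 lists.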

How the data were processed

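The values are log2 expression levels deposited by the authors, 1 per transcript cluster of the Affymetrix Mouse Gene 1.0 ST array. The authors used RMA, per the submitters' processing notes, and GeneSpring GX 11, per the labels' protocols; the RMA version and genome build are not stated in the sources used here. Normalization of this kind hides a change common to most transcripts. Of 35556 rows, 21789 had 1 gene symbol, and the row with the highest mean was kept per gene, which left 19938 genes. No depth applies to arrays; their number limits the precision.

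Groups came from the sample titles. Differences were fitted with limma 3.58.1 in R 4.3.3 on all 28 arrays with 1 mean per group, two-sided, with Benjamini-Hochberg adjustment over all genes at 0.05; vehicle arrays were the reference and naive arrays entered no contrast. The replicate numbers were checked for pairing by correlating deviations from group means. Same-numbered cage vehicle arrays and arrays of other groups correlated at -0.59 to -0.29 (12 pairs), so the label numbers do not pair these groups; cage vehicle replicates 3 to 5 matched replicates 1 to 3 of the other groups, and these array sets formed the block. The sets were found in the values that were then tested. Separate pools are stated for replicates; p-values measure the spread between pools. The fit was tested on simulated data.

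The genes, the partner, target and marker lists, the comparisons and the rule for named genes (all 10 genes, up to 6 genes per list past the threshold with the block, and the 5 genes most like Rest) were chosen with earlier results of these data known. Other list genes were picked for naming after their values were seen. Upstream sequences and motif shares come from the RefSeq promoter table of GRCm38.p6. List genes without a row in the table as used are not analysed here.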

Additional observations from a re-analysis of the deposited data

How the results depend on the processing

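Over the alternatives run with and without the array-set block, the TSA differences kept their sign for 8 of the 10 genes, and ranged from 0.39 to 0.61 for Rest, 0.1 to 0.36 for Rcor1, 0.15 to 0.29 for Rcor2 and 0.32 to 0.49 for Sin3a; Sin3b, not called, ran from -0.18 to 0.11 and Rcor3, not called, from -0.15 to 0.02. The count of these genes past the threshold for TSA was 2 in the planned fit (0.331% of all genes in either direction). It was 6 with the replicate block by array set (4.63%) and 4 with the replicate block by label number (17.5%, Rest at 0.39). It was 1 without dim genes (0.518%), which leaves Rest and Sap30 out of the test. Without the 4 arrays high in choroid plexus markers it was 0 (0.145%). Leaving out single arrays gave 2 to 3 (0.246% to 0.431% of all genes), and 5 to 7 with the array-set block (3.08% to 5.03%). With that block the count was 3 without array set 1 (1.26%) and 3 without the choroid plexus arrays (2.9%). The cause was not tested.

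With the block, Rest in wild-type novelty was the 1 gene called there. The count was 0 without array set 1, 2 or 3, without the choroid plexus arrays, without dim genes or with naive and vehicle controls merged, and 0 to 1 when single arrays were left out. In these fits 0% to 0.389% of all genes were called. The block by label number, which joins arrays of different sets, called 1 of the 10 genes in wild-type cage (Sin3b; 17.5% of all genes) and 2 for the dependence on housing (Rcor1 and Sin3b; 18.8% of all genes); the cause was not tested. The novelty difference of Rest ran from -0.11 to 0.01 when single arrays were left out. The blocks changed no other count. Array-set leave-outs, the choroid plexus exclusion and alternatives within the block were chosen after seeing the data. No detection call was used, so signal over background could not be judged for the low rows of Rest and Sap30.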

Other observations

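The naive cage arrays, which entered no comparison, had lower values than the vehicle-injected cage arrays for several SIN3 subunit genes. Suds3 had 8.37 to 8.49 in naive and 8.68 to 8.93 in vehicle arrays of wild type, and 8.43 to 8.58 against 8.65 to 8.9 in cbp+/- mice. Sap30l had 6.73 in both naive arrays against 6.89 to 7.16 in wild type, and 6.59 to 6.68 against 6.85 to 7.15 in cbp+/- mice. Sap30 had 4.83 to 5 against 5.02 to 5.42 in wild type and 4.9 to 5.12 against 5.18 to 5.51 in cbp+/- mice. Rcor1 in wild type went the other way, at 7.45 to 7.54 in naive and 7.08 to 7.39 in vehicle arrays, while the cbp+/- ranges overlapped. Sin3a, Rcor2, Rcor3 and Sin3b overlapped in both genotypes, and Rest overlapped in wild type but not in cbp+/- (5.26 to 5.28 against 5.32 to 5.61). Sap130 likewise overlapped in wild type but not in cbp+/- (7.52 to 7.57 against 7.81 to 7.96). With 2 naive arrays a genotype, and none of them in the 3 array sets, injection and array set cannot be told apart here, and no test was made. The share of all genes with naive and vehicle arrays apart was not counted, so nothing is read from the separations listed.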
